A study of Mus musculus with 34 samples.

Results

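The inflammatory cytokine genes Il1a, Il1b, Il6, Tnf, Il10, Il18, Il1rn, Osm, Csf1 and Tgfb1 were followed in sorted hepatocytes and sorted macrophages of mouse liver. The 10 genes were found by their symbols and are 10 of the 22586 genes listed in both count tables (24951 genes for hepatocytes, 26233 for macrophages). The study asked how hepatocytes and macrophages respond when YAP and TAZ, the coactivators of the Hippo pathway, are deleted from biliary epithelial cells, with and without an acute injury.

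The groups were knockout mice given carbon tetrachloride (CCl4), control mice given CCl4, knockout mice without CCl4 and control mice without CCl4. Every mouse, controls included, carried the floxed alleles Yap fl/fl Taz fl/fl on a mixed B6;129P background and received tamoxifen (1.6 mg/kg on each of 5 days, begun when 7 to 8 weeks old) and was then left for a 3 week washout. Knockout mice also carried the Opn-iCreERT2 driver, a tamoxifen-inducible Cre under the osteopontin promoter, and the controls were siblings that lacked it. CCl4, which hepatocytes convert to a toxic radical, was injected (1 ml/kg), with harvest after 48 h. Hepatocytes came from 4, 3, 5 and 6 mice of the groups in the order named above, and macrophages from 4 mice of each group. Percoll and a sort for cells without propidium iodide gave the hepatocytes, and a sort for live cells bearing both F4/80 and CD45 gave the macrophages. The driver is meant to act in biliary epithelial cells, which are neither of the sorted cell types, and deletion was not measured here. The p-values below measure the spread between the mice of a group, 1 library per mouse and cell type. The sort enriches a cell type and does not make it pure, and in such bulk libraries a change in the number of contributing cells and a change in RNA per cell cannot be told apart.

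Depth ran between 931496 and 7535053 counts over hepatocyte libraries and between 596380 and 5128587 over macrophage libraries. In CPM, the counts scaled to library size, 3 counts thus stood for 0.398 to 3.22 in hepatocytes and for 0.585 to 5.03 in macrophages. The sequencing files fell into 2 numbered series: every knockout library was in the second, and 5 hepatocyte and 2 macrophage control libraries were in the first. For the hepatocyte library of control mouse 15 and the macrophage library of control mouse 11, both after CCl4, 1 label stated the knockout genotype. They were kept as controls, as the genotype label has them. Yap1 and Wwtr1, the floxed genes, were not called between genotypes in either cell type, which does not check the labels because the driver is aimed at biliary cells. Against their markers, hepatocyte libraries held 60096 to 125401 CPM over 8 hepatocyte genes and 14.9 to 1373 CPM over 12 macrophage and Kupffer cell genes. Macrophage libraries held 6869 to 25725 CPM over those 12 genes, and 439 to 34188 CPM over the 8 hepatocyte genes.

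Most of these cytokines are messengers that liver macrophages, the resident Kupffer cells and incoming monocytes, can release when tissue is damaged. IL-1α and IL-1β signal through the same receptor and IL-1 receptor antagonist (Il1rn) blocks it, TNF acts through NF-κB and cell death pathways, and IL-6 and oncostatin M (Osm) act through receptors that share the gp130 subunit and drive the acute phase response of hepatocytes. IL-10 and TGF-β1 restrain inflammation, with TGF-β1 also promoting fibrosis, and CSF1 keeps macrophages alive. IL-1β and IL-18 are made as precursors that inflammasome caspases cut.

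All 10 genes were placed on the GRCm38 annotation. Il1a (chromosome 2, 129299610 to 129309972, minus strand), Il1b (chromosome 2, 129364570 to 129371139, minus strand) and Il1rn (chromosome 2, 24336853 to 24351494, plus strand) belong to the interleukin-1 family, as does Il18 (chromosome 9, 50554827 to 50581840, plus strand). Il6 lies on chromosome 5 (30013114 to 30019981, plus strand), Tnf on chromosome 17 (35199381 to 35202007, minus strand) and Csf1 on chromosome 3 (107741048 to 107760469, minus strand). Osm lies on chromosome 11 (4236420 to 4241026, plus strand), Il10 on chromosome 1 (131019845 to 131024974, plus strand) and Tgfb1 on chromosome 7 (25687002 to 25705077, plus strand). Counts are given per gene, from 3′ libraries, and the strand setting of the counting is not given in the sources used here. Reads of Il1a and its antisense gene Gm14023, of Il1b and Il1bos, and of Il18 and the genes Bco2 and Tex12 on its other strand may therefore be mixed where they fall in the overlap.

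The promoters of Il1a, Il1b, Il6 and Tnf are shown as examples of genes called between groups of a cell type below. Il18, Il1rn and Csf1 were called between groups too, and their promoters are not shown. Each is a window that opens 250 bases before the start of the gene, in RefSeq's GRCm38.p6, 5′ to 3′ on the gene's own strand. Capitals mark matches, on either strand, to the NF-κB motif, to TGANTCA (AP-1), to TTGCNNAA (C/EBP) and to TATAAA.
Il1a, minus strand of chr2:129309923-129310222: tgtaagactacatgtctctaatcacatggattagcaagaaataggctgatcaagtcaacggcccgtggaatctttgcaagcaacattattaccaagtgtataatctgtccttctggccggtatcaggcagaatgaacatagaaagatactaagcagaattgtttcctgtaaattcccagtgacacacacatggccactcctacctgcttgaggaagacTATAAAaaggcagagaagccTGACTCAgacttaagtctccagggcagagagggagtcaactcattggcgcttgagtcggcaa
Il1b, minus strand of chr2:129371090-129371389: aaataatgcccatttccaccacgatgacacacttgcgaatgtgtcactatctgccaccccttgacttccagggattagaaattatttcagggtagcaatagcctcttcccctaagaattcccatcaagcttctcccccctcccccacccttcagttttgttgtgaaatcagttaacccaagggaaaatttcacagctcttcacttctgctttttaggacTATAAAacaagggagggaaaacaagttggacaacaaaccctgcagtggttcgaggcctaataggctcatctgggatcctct
Il6, plus strand of chr5:30012864-30013163: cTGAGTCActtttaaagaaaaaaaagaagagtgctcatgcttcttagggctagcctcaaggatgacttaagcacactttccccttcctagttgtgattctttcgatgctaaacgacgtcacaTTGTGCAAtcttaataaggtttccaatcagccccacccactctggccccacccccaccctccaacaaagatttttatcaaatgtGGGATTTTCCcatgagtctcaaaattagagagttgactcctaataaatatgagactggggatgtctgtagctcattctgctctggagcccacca
Tnf, minus strand of chr17:35201958-35202257: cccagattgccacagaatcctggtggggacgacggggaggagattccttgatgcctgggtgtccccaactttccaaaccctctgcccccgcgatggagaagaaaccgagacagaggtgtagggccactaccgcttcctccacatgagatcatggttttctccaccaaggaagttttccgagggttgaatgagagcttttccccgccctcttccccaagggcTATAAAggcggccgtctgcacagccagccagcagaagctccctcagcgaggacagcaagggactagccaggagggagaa

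With positions counted from the gene start, TATAAA stood at -32 in Il1a, -31 in Il1b and -29 in Tnf, and was found in 13.6% of 32851 mouse promoters of the same length. The Il1a window also held TGACTCA at -12, a match to the AP-1 motif, which 7.81% of promoters hold. Il6 held an NF-κB match (GGGATTTTCC) at -44, TTGTGCAA at -128 and TGAGTCA at -249. The NF-κB motif was in 6.93% and TTGCNNAA in 10.8% of the promoters. A match is a string of letters and not a measured binding site, and its absence says nothing beyond the window.

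The 3′ untranslated regions of cytokine genes often carry AUUUA repeats, read as ATTTA in the DNA, where RNA-binding proteins attach and shorten the life of the transcript. Of the 10 genes, 9 carried at least 1 ATTTA in the 3′ region of 1 annotated transcript per gene and Il1rn carried 0, against 62.9% of 20985 genes. Tnf had 8 copies in 764 bases, Il6 had 6 in 427 bases and Il1b had 4 in 459 bases. The densest 30 bases of Tnf, shown for their overlapping repeats in capitals, held 5 copies.
Tnf, 3′ region, chromosome 17: ATTTAttATTTATTTAttATTTATTTAttt

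Most of the cytokine genes were higher in the macrophage than in the hepatocyte libraries, and other cells of the liver were not sorted. Macrophage libraries also held 159 to 3786 normalised CPM of stellate cell markers and 203 to 1782 of endothelial markers. In macrophages over hepatocytes, 9 of the 10 were higher in control mice without CCl4 (62.8% of 12052 genes were called in either direction, 34.3% upward), and 9 in knockout mice without CCl4 (56.5%, with 32.1% upward). After CCl4 10 of 10 were higher in control mice (46.4%, with 24.1% upward) and 10 of 10 in knockout mice (50%, with 26.8% upward). The exceptions without CCl4 were Il18 in control mice, whose log2 fold change of 0.40 had an SE of 0.26 and an adjusted p of 0.171, and Csf1 in knockout mice, at 0.35 (SE 0.39, adjusted p = 0.458). In control mice without CCl4 the log2 fold changes were 7.85 for Il1a, 7.28 for Il1b, 7.20 for Il6, 7.77 for Tnf and 7.92 for Il10, with SE of 0.63 to 0.85. They were 5.95 for Osm (SE 1.07), 4.37 for Tgfb1 (SE 0.53), 2.94 for Il1rn (SE 0.40) and 1.18 for Csf1 (SE 0.39, adjusted p = 0.0097). Across the 10 genes the median was 6.57, against 0.14 over all genes tested. After CCl4 the call of Csf1 in control mice (1.09, SE 0.44, adjusted p = 0.042) was lost without 6 of 7 libraries in turn, and that of Osm in knockout mice (2.51, SE 0.93, adjusted p = 0.024) without 4 of 8, which were the hepatocyte libraries of mice 14, 17 and 18 and the macrophage library of mouse 17. For Csf1 these were hepatocyte libraries 15 and 16 and macrophage libraries 11, 12, 15 and 16, with adjusted p up to 0.17.

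**Figure D1:**
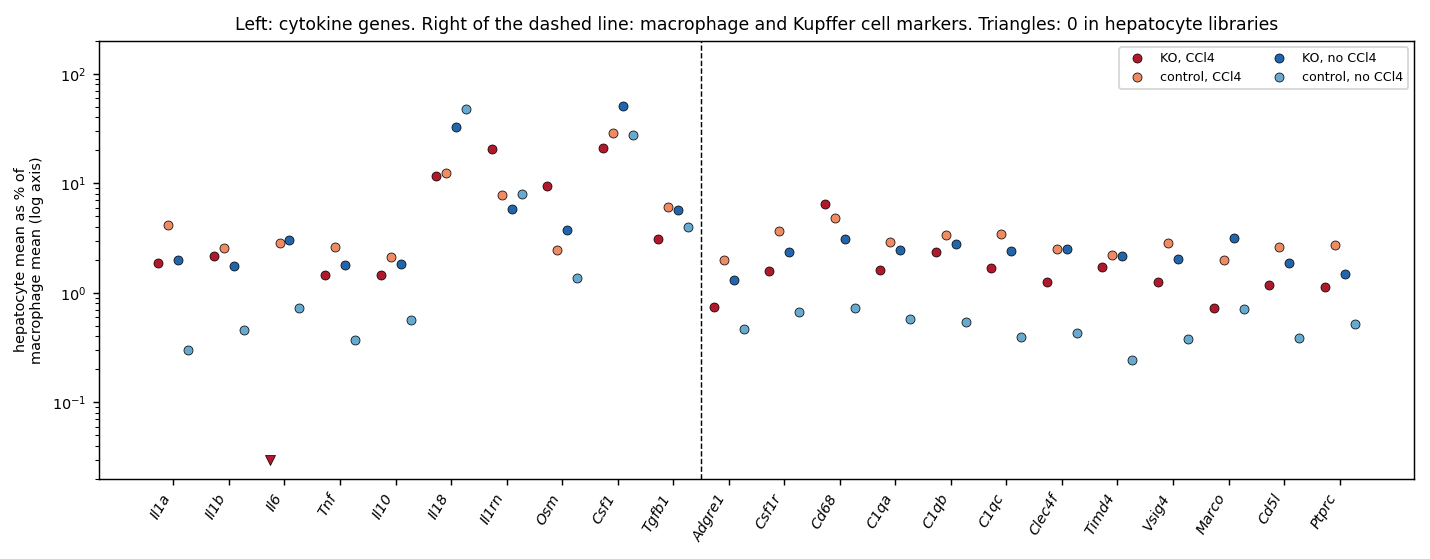
Mean level in hepatocytes as a percentage of the mean level in macrophages of the same condition (log axis), for the 10 cytokine genes left of the dashed line and 12 macrophage and Kupffer cell markers right of it, with 1 point for each condition and a triangle for 0. In control mice without CCl4, Il1a, Il1b, Il6, Tnf and Il10 sit between 0.301% and 0.733%, where the markers lie between 0.242% and 0.721%, while Il18 (47.9%), Csf1 (27.3%), Il1rn (8.02%), Tgfb1 (4.03%) and Osm (1.38%) stand above.

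The share that hepatocyte libraries held of the macrophage level set the genes apart from each other, as the plot of these percentages shows. These percentages join levels scaled separately in the 2 cell types and are given as descriptions. In control mice without CCl4 the 12 macrophage markers were at 0.242% to 0.721% of their macrophage level in hepatocytes, and Il1a (0.301%), Tnf (0.374%), Il1b (0.460%) and Il10 (0.563%) lay in that range, with Il6 at 0.733%. In knockout mice without CCl4 the markers were at 1.32% to 3.17%, and Il1a (1.99%), Tnf (1.80%), Il1b (1.77%), Il10 (1.82%) and Il6 (3.02%) lay in that range too. After CCl4 the markers were at 0.726% to 6.46% in knockout mice and 2.00% to 4.79% in control mice. Il1a, Il1b, Tnf and Il10 were at 1.45% to 2.18% in these knockout mice and at 2.11% to 4.13% in these control mice. Il18 (11.6% to 47.9%), Csf1 (21.1% to 50.9%) and Il1rn (5.86% to 20.5%) had higher shares than the highest marker in each of the 4 conditions. Tgfb1 (3.11% to 6.04%) did so except in knockout mice after CCl4, where its 3.11% lay within the range of the markers. Osm, at few counts in hepatocytes, had 9.48% in knockout mice and 2.46% in control mice after CCl4, and 3.75% in knockout mice and 1.38% in control mice without it, below the markers' median of 2.81% in control mice after CCl4.

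In macrophages, Il6 and Il1b were lower with CCl4 in control mice, and the other 8 genes were not called there. Of the 10 genes tested 2 were called, against 13.2% of 10815 genes (6.77% upward, 6.39% downward), and the median over the 10 was 0.13, against -0.03 over all genes. In knockout macrophages 9 of the 10 genes had a negative log2 fold change with CCl4 and 0 were called by edgeR's quasi-likelihood test (0.878% of genes were called), with 6 at an unadjusted p under 0.05 and 2 called by DESeq2, Il6 and Il1a. Between knockout and control macrophages 0 were called without CCl4 (0.166% of genes), with 2 at an unadjusted p under 0.05 and 0 by DESeq2. After CCl4 0 were called (0.0647% of genes), with 3 at an unadjusted p under 0.05 and 1 by DESeq2, Il1rn. For the interaction, the CCl4 response of knockout minus that of control mice, 0 were called (0.194% of genes), with 2 at an unadjusted p under 0.05 and 1 by DESeq2, again Il1rn. Knockout libraries after CCl4 differed in their markers. The 12 macrophage and Kupffer cell genes summed to 6869 and 7622 normalised CPM in mice 13 and 14. In mice 17 and 18 they summed to 21570 and 25725. The 8 hepatocyte genes summed to 34188 and 27476 in mice 13 and 14, and to 3023 and 2829 in mice 17 and 18. Untreated knockout macrophages held 18985 to 25275 and 3997 to 14470 of these sums. The part of such differences in the fold changes was not tested.

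**Figure D2:**
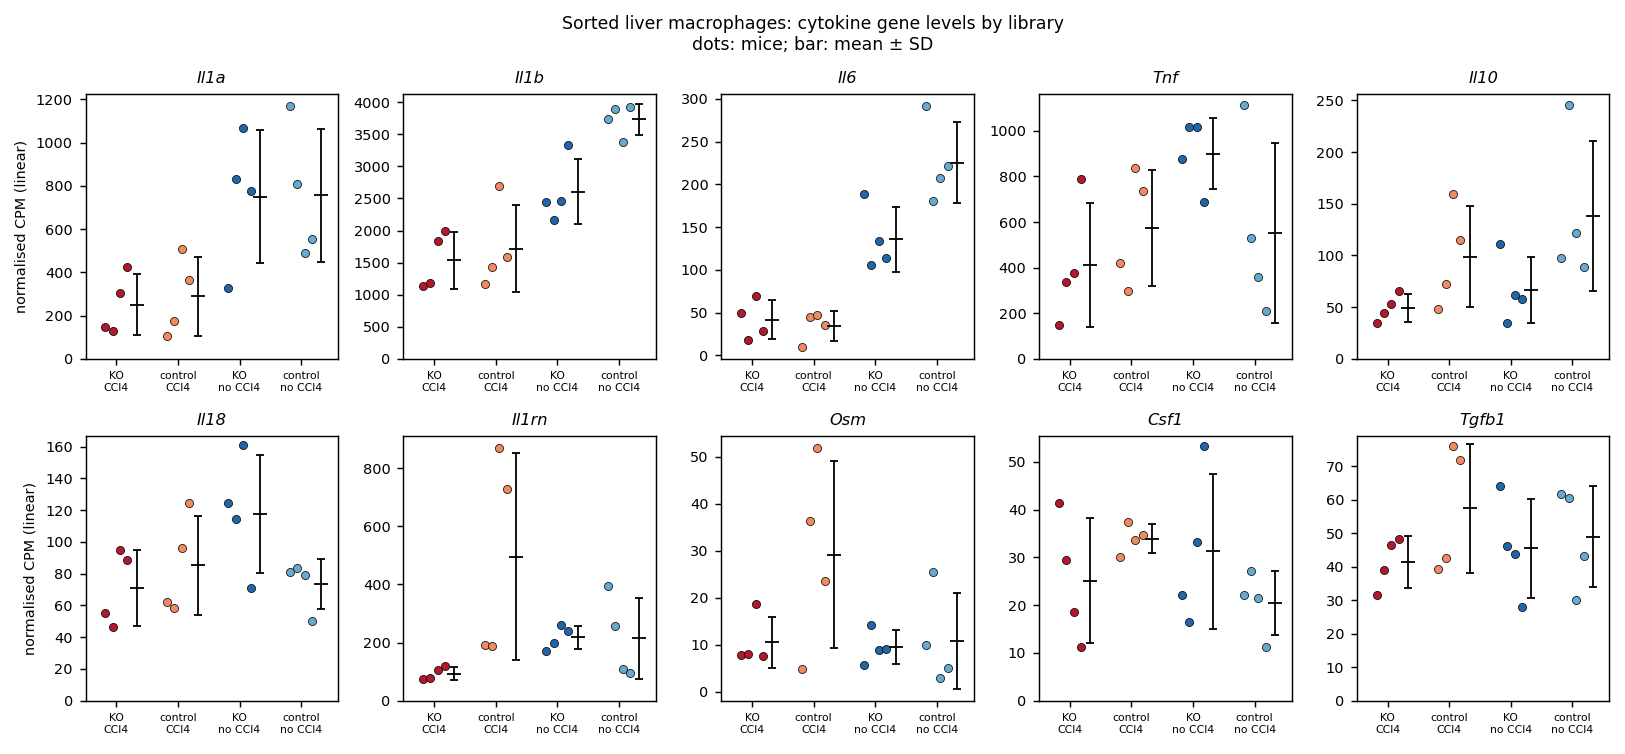
Level of each cytokine gene in sorted macrophages (normalised CPM, linear axes), 1 dot per mouse, 4 mice per group, with the mean ± SD beside the dots. Il6 after CCl4 lies at 10.2 to 69.9 in both genotypes and below the 105 to 291 of the mice without it, and Il1rn in knockout mice after CCl4 (72.7 to 118) lies below the control mice after CCl4 (188 to 872).

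In hepatocytes 6 of the 10 genes passed the filter on low counts (Il1a, Il1b, Tnf, Il18, Il1rn and Csf1). With CCl4 in control mice 4 of these 6 were called, with Il1a, Tnf and Il1rn higher and Il18 lower, against 27.4% of 9679 genes (13.7% upward and 13.7% downward), and the median of the 6 was 1.40, against -0.01 over all genes. Without CCl4, 3 of 6 were higher in knockout than in control hepatocytes (Il1a, Tnf and Csf1), against 7.87% of genes (4.64% upward, 3.23% downward), at a median of 1.61, against 0.01 over all genes. The ranges of knockout and control mice overlapped for each of the 6 there, while they were apart for 3.53% of all genes tested. With CCl4 in knockout mice 2 of 6 were lower (Il18 and Csf1), against 13.9% of genes (7.02% upward, 6.84% downward). Between knockout and control hepatocytes after CCl4 0 of 6 were called by edgeR's quasi-likelihood test (0.176% of genes), with 1 at an unadjusted p under 0.05 and 0 by DESeq2, and the 6 log2 fold changes were all negative, with a median of -0.94, against 0.01 over all genes. For the interaction 0 of 6 were called (0.217% of genes), with 3 at an unadjusted p under 0.05 and 1 by DESeq2, Tnf.

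**Figure D3:**
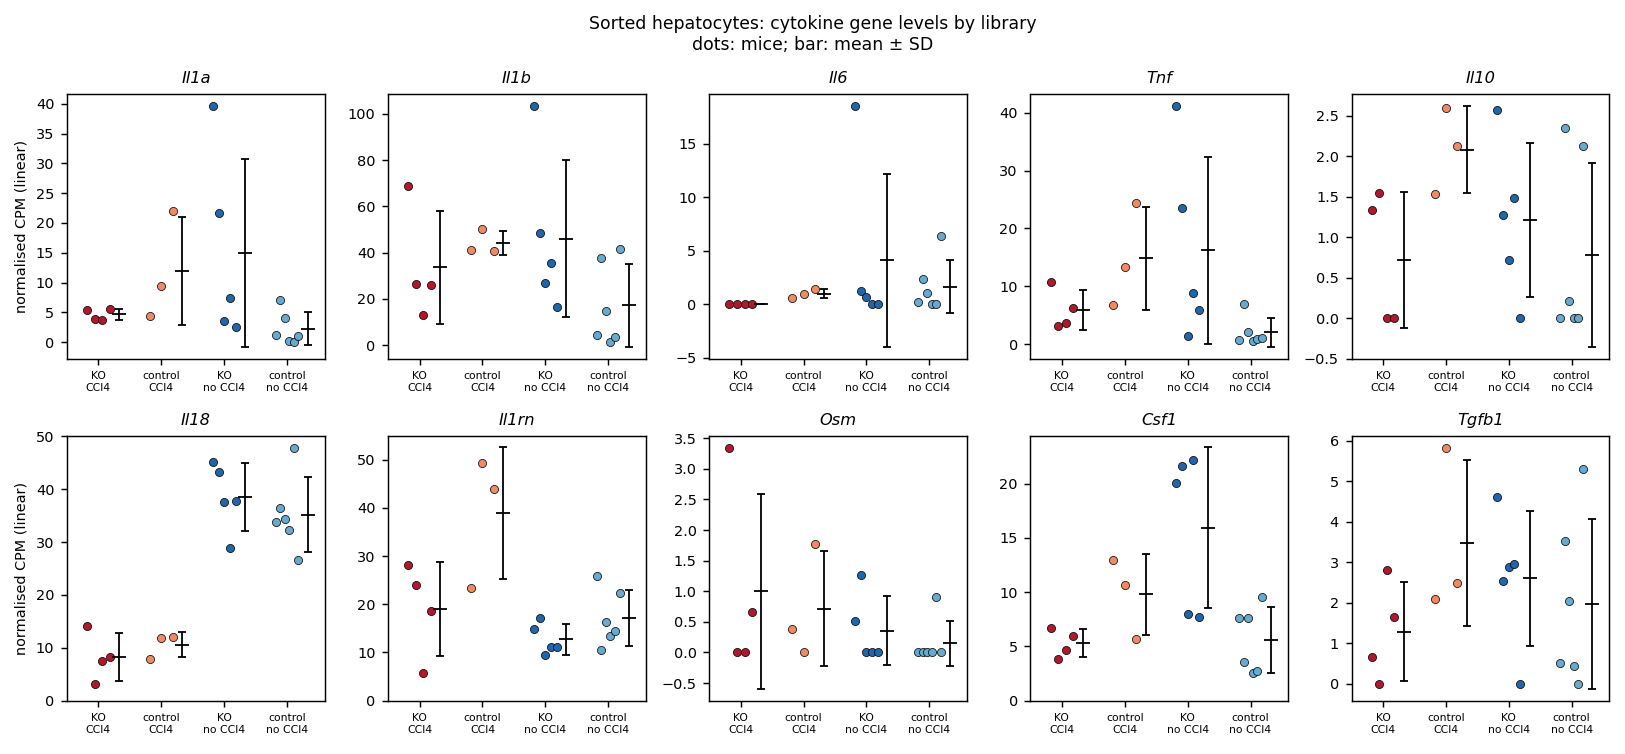
Level of each cytokine gene in sorted hepatocytes (normalised CPM, linear axes), 1 dot per mouse (4, 3, 5 and 6 mice from left to right), with the mean ± SD beside the dots. Il18 after CCl4 (3.10 to 14.03) lies below all mice without it (26.5 to 47.8), and the highest knockout dot of Il1a, Il1b, Il6 and Tnf without CCl4 is mouse 4 each time.

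Il1a encodes IL-1α, an alarm signal that dying cells release. In macrophages it had 145, 128, 303 and 425 normalised CPM in knockout mice after CCl4 and 106, 174, 508 and 366 in control mice after CCl4. Without CCl4 it had 328, 833, 1068 and 774 in knockout mice and 1170, 807, 489 and 556 in control mice. Mice after CCl4 were mostly the lower ones, with 1 knockout and 1 control library within the range of the mice without it. The log2 fold change with CCl4 was -1.58 in knockout mice (SE 0.51, adjusted p = 0.20) and -1.39 in control mice (SE 0.50, adjusted p = 0.080). Neither passed the threshold in the main edgeR fit, and DESeq2 called both (adjusted p = 0.0497 in knockout mice and 0.0315 in control mice). Without a filter on low counts edgeR also called both (adjusted p = 5.5e-06 and 5.6e-05). The log2 fold changes hardly moved there (-1.60 and -1.34), while the SE fell to 0.28 in both. Those smaller p-values thus rest on a smaller estimate of the spread and not on a larger change. With the file series as a term edgeR called the value of control mice (-1.50, adjusted p = 0.037). It did so without treated control mouse 15 as well (-1.81, adjusted p = 0.044).

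In hepatocytes Il1a was at 39.6, 21.6, 3.61, 7.40 and 2.57 normalised CPM in knockout mice without CCl4, against a lowest of 0, a median of 1.14 and a highest of 7.04 in the 6 control mice without CCl4. After CCl4 it was at 5.34, 3.87, 3.75 and 5.64 in knockout mice and at 4.39, 9.38 and 22.0 in control mice. The group ranges overlapped in each of these comparisons. Il1a was higher in knockout mice without CCl4 (2.98, SE 0.74, adjusted p = 0.0204) and higher with CCl4 in control mice (2.50, SE 0.78, adjusted p = 0.0215). The first call was lost without control mouse 2, control mouse 8 or knockout mouse 4, and the second without control mice 2 or 8 or the CCl4-treated control mouse 16 (adjusted p up to 0.10 and up to 0.13).

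Gm14023, the antisense gene that overlaps Il1a, had the same sign as Il1a in the 5 hepatocyte comparisons but not in all macrophage ones. Its log2 fold change in hepatocytes was 3.30 in knockout mice without CCl4 (SE 0.64, adjusted p = 0.0033), 2.76 with CCl4 in control mice (SE 0.66, adjusted p = 0.0026) and -4.21 for the interaction (SE 0.92, adjusted p = 0.047). For Il1a the interaction was also -4.21, with a larger SE of 1.10 and adjusted p = 0.11. In macrophages Gm14023 fell by 1.40 with CCl4 in control mice (SE 0.39, adjusted p = 0.024). It averaged 144 ± 39.3 normalised CPM there after CCl4 and 376 ± 206 without it (SD, n = 4 each). Between knockout and control macrophages after CCl4 it was at 0.87 (SE 0.38, adjusted p = 0.58), where Il1a was at -0.20 (SE 0.50, adjusted p = 0.94).

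Il1b encodes IL-1β, which is released once its precursor has been cut. In macrophages it had 1160, 1434, 2695 and 1587 normalised CPM in control mice after CCl4 and 3733, 3888, 3387 and 3922 in control mice without it, with every treated mouse below every untreated one (as either way round for 19.2% of the genes tested). The log2 fold change was -1.12, with an SE of 0.27 and an adjusted p of 0.011, and the call held without each library in turn. In the second file series alone, the value was -1.01 with an adjusted p of 0.051. Knockout macrophages had 1133, 1183, 1839 and 1985 after CCl4 and 2447, 2171, 2457 and 3341 without it, again with no overlap, and the value of -0.76 missed the threshold (SE 0.27, adjusted p = 0.237).

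Without CCl4 each of the 4 knockout mice also lay below each of the 4 control mice for Il1b in macrophages (2604 ± 509 against 3732 ± 245 normalised CPM, SD). The ranges of the 2 groups were apart for 8.83% of the genes tested, and the log2 fold change of -0.52 was not called (SE 0.27, adjusted p = 0.449). Hepatocyte genes summed to 3997 to 14470 normalised CPM in these knockout and 17630 to 21205 in these control macrophages, and their part was not tested. In hepatocytes Il1b had 103, 48.4, 26.7, 35.5 and 16.3 normalised CPM in knockout mice without CCl4, against 1.49 to 41.4 with a median of 9.44 in control mice. The log2 fold change was 1.73 and missed the threshold (SE 0.72, adjusted p = 0.145). With CCl4 it was 1.64 in control mice (SE 0.78, adjusted p = 0.135), where the treated mice had 41.2, 50.0 and 40.8. Treated knockout mice had 68.8, 26.3, 13.1 and 25.9, on both sides of those control mice.

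Il18, an interleukin-1 family cytokine that drives interferon-γ production, was the gene of the 10 whose hepatocyte and macrophage levels were closest in control mice without CCl4. It had 14.03, 3.10, 7.51 and 8.29 normalised CPM in knockout hepatocytes after CCl4 and 45.2, 43.3, 37.5, 28.9 and 37.7 in knockout hepatocytes without it. Control hepatocytes had 7.82, 11.8 and 12.1 after CCl4 and 26.5 to 47.8 without it, with a median of 34.1. No treated library reached an untreated one in either genotype. Ranges were apart for 13.1% of genes with CCl4 in knockout mice and 23.8% in control mice. Il18 fell by 2.20 in knockout hepatocytes (SE 0.28, adjusted p = 4.65e-05) and by 1.73 in control hepatocytes (SE 0.27, adjusted p = 7.05e-05), and both calls held without each library in turn. The response of knockout minus that of control mice was -0.47 (SE 0.38, adjusted p = 0.76).

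In macrophages Il18 was not called in any of the 5 comparisons. It had 55.0, 46.3, 94.8 and 88.3 normalised CPM in knockout mice after CCl4 and 62.3, 58.1, 95.9 and 125 in control mice after CCl4, and 124, 115, 161 and 70.8 in knockout mice without CCl4 and 81.2, 83.6, 79.1 and 50.1 in control mice without CCl4. It averaged 71.1 ± 24.0 normalised CPM in knockout mice after CCl4, 85.2 ± 31.3 in control mice after CCl4, 118 ± 37.1 in knockout mice without CCl4 and 73.5 ± 15.7 in control mice without CCl4 (SD, n = 4 each), and neighbouring groups in this range overlapped. The genes on the other strand, Bco2 and Tex12, averaged at most 6.48 and 1.15 normalised CPM in any hepatocyte group. Bco2 averaged 1.91 ± 1.54 in control hepatocytes after CCl4 and 6.48 ± 1.66 without it.

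Il1rn encodes the IL-1 receptor antagonist, which occupies the receptor without signalling. In macrophages after CCl4 it had 72.7, 77.1, 104 and 118 normalised CPM in knockout mice and 192, 188, 872 and 730 in control mice. The groups did not overlap, as for 3.66% of the genes tested, and the control mice fell into a pair of lower values (mice 11 and 12) and a pair of higher ones (mice 15 and 16). The library of control mouse 11 is the one with conflicting labels. The log2 fold change was -2.41 (SE 0.53) and missed the threshold over all genes (adjusted p = 0.135). It passed with DESeq2 (adjusted p = 0.0013), with the file series as a term (adjusted p = 0.046) and without a filter on low counts (SE 0.30). It did not pass with the library of conflicting labels left out or moved to knockout. The summed monocyte markers were 1680 to 2771 normalised CPM in the knockout and 3047 to 4313 in the control macrophages after CCl4, with 0 of 6 called. The 8 hepatocyte genes summed to 7954 and 16248 in control mice 11 and 12, and to 1033 and 439 in control mice 15 and 16. Stellate cell markers summed to 1874 and 1714, and to 159 and 169, in the same mice. Knockout mice after CCl4 held 2829 to 34188 and 541 to 3786 of these sums, in that order. The part of these cells in the difference and in the pairs was not tested. Without CCl4, Il1rn had 170, 199, 260 and 241 in knockout mice and 394, 256, 110 and 94.9 in control mice, a log2 fold change of 0.03 (SE 0.50).

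The interaction of Il1rn in macrophages was -2.44 (SE 0.72, adjusted p = 0.17). It is made of a response of -1.22 to CCl4 in knockout mice (SE 0.51, adjusted p = 0.37) and of 1.21 in control mice (SE 0.50, adjusted p = 0.12). DESeq2 called the interaction at -2.40 (adjusted p = 0.041). In hepatocytes Il1rn had 28.1, 24.0, 5.63 and 18.6 normalised CPM in knockout mice after CCl4 and 23.5, 49.3 and 44.0 in control mice after CCl4. Without CCl4 knockout mice had 14.9, 17.2, 9.38, 11.1 and 11.1 and control mice 10.6 to 25.8, with a median of 15.4. It was higher with CCl4 in control hepatocytes, by 1.15 (SE 0.31, adjusted p = 0.0093), a call that was lost without mouse 15 (0.92, adjusted p = 0.076), which is the library with conflicting labels. The response in knockout hepatocytes was 0.59 (SE 0.35, adjusted p = 0.31).

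Tnf encodes tumour necrosis factor, which acts at once on neighbouring cells. In hepatocytes it had 41.1, 23.6, 1.44, 8.88 and 6.00 normalised CPM in knockout mice without CCl4, against 0.637 to 7.04 with a median of 0.982 in control mice without CCl4. After CCl4 it had 10.7, 3.10, 3.75 and 6.30 in knockout mice and 6.86, 13.3 and 24.5 in control mice. Tnf was higher in knockout than control hepatocytes without CCl4 (3.50, SE 0.71, adjusted p = 0.0073) and higher with CCl4 in control hepatocytes (3.27, SE 0.74, adjusted p = 0.0025), and both calls held without each library in turn. The log2 fold change with CCl4 in knockout hepatocytes was -1.46 (SE 0.69, adjusted p = 0.18).

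The interaction of Tnf in hepatocytes was -4.72 (SE 1.02) and fell just outside the threshold (adjusted p = 0.051). It passed in DESeq2 (-4.54, adjusted p = 0.023), with RLE factors (-4.77, adjusted p = 0.049) and with the file series as a term (-4.59, adjusted p = 0.040). It did not pass without a filter on low counts, in the older edgeR fit or with the library of conflicting labels left out or moved. The 12 macrophage and Kupffer cell markers had a median interaction of -3.19 in these libraries, and 7 stellate cell markers of -2.98, with 0 called in each list. The part of these cells in the value of Tnf was not tested. In macrophages Tnf was not called in any comparison. It had 146, 336, 376 and 790 normalised CPM in knockout mice after CCl4 and 420, 298, 837 and 737 in control mice after CCl4. Without CCl4 it had 878, 1017, 1016 and 687 in knockout mice and 1112, 528, 357 and 211 in control mice, where mouse 6 stood above the other 3. It averaged 412 ± 271 normalised CPM in knockout mice after CCl4, 573 ± 255 in control mice after CCl4, 899 ± 156 in knockout mice without CCl4 and 552 ± 395 in control mice without CCl4 (SD, n = 4 each). With CCl4 its log2 fold change was -1.12 in knockout macrophages (SE 0.50, adjusted p = 0.40) and 0.05 in control macrophages (SE 0.50, adjusted p = 0.96).

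The macrophage markers in the hepatocyte libraries moved with Il1a and Tnf. Of the 12 markers, each above 0 in every group, 8 were higher in knockout than control hepatocytes without CCl4 (median log2 fold change 2.73, with 4.64% of all genes higher) and 6 were higher with CCl4 in control hepatocytes (median 2.28, with 13.7% of all genes higher). Their summed level was 143 to 1373 normalised CPM in knockout hepatocytes without CCl4, against 14.9 to 225 in control hepatocytes without CCl4, and 149 to 295 in knockout hepatocytes after CCl4, against 356 to 465 in control hepatocytes after CCl4. Knockout mouse 4 had the highest sum of all hepatocyte libraries (1373) and also the highest Il1a, Il1b, Il6 and Tnf. Also higher with CCl4 in control hepatocytes were 4 of 7 tested stellate cell markers (median 2.85), 2 of 4 biliary markers (Sox9 by 2.07 and Prom1 by 3.62) and 1 of 3 monocyte markers (Plac8 by 1.71). In knockout hepatocytes without CCl4, Prom1 (3.50) and Plac8 (1.48) were higher too. Lymphocyte markers summed to at most 2.35 and neutrophil markers to at most 49.9 normalised CPM in a hepatocyte library. The part of these cells in the hepatocyte results was not tested.

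**Figure D4:**
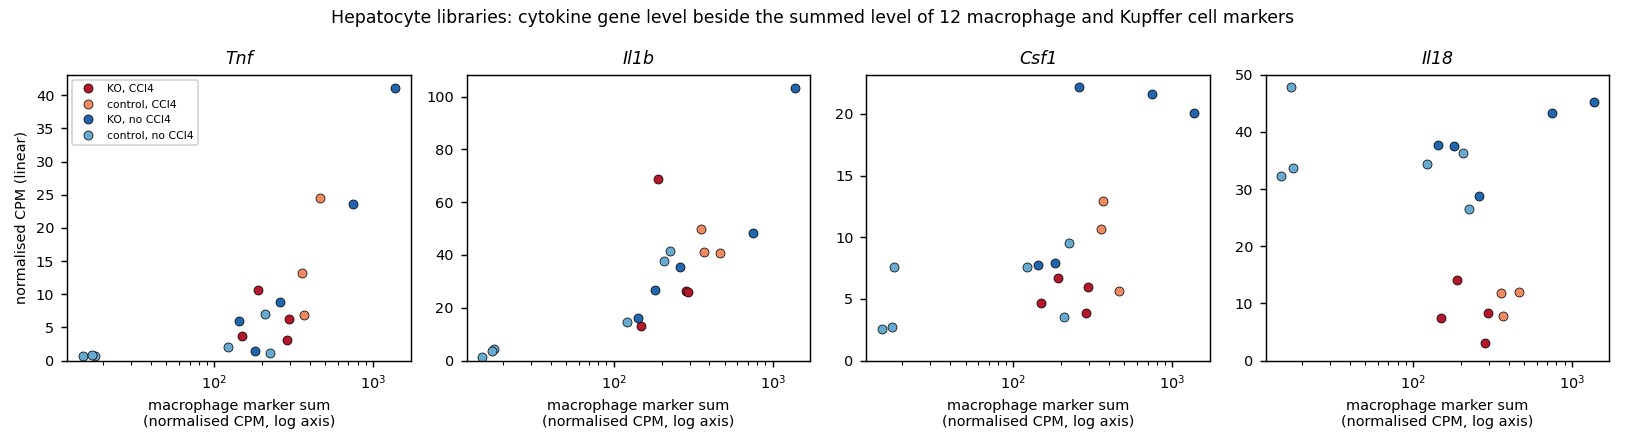
Level of Tnf, Il1b, Csf1 and Il18 in each hepatocyte library (normalised CPM, linear axis) against the summed level of 12 macrophage and Kupffer cell markers in that library (normalised CPM, log axis), coloured by group. Knockout mouse 4 is the rightmost point (1373) and the highest in Tnf (41.1) and Il1b (103), while Il18 after CCl4 (3.10 to 14.03) is low at marker sums that overlap those of the mice without CCl4.

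The file series also moved with genotype in hepatocytes, since the control mice 2, 7 and 8 without CCl4 and the control mice 12 and 15 with CCl4 were in the first series. With the series as a term 0 of the 6 genes were called between genotypes without CCl4. The log2 fold changes were then 2.12 for Il1a (adjusted p = 0.27), 2.60 for Tnf (adjusted p = 0.14) and 1.91 for Csf1 (adjusted p = 0.059). In the second series alone they were 2.64 (adjusted p = 0.36), 2.56 (adjusted p = 0.37) and 1.61 (adjusted p = 0.23). For CCl4 in control hepatocytes the 4 calls held with the series as a term. In the second series alone, with 1 treated control mouse left, they were lost at values of 3.16 for Il1a, 3.14 for Tnf, 1.51 for Il1rn and -1.57 for Il18.

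Il6 encodes interleukin-6, which induces acute phase genes and supports regeneration of the liver. In macrophages it had 10.2, 44.6, 47.7 and 35.5 normalised CPM in control mice after CCl4 and 291, 181, 208 and 222 in control mice without it, and the groups were far apart. It fell by 2.74 (SE 0.42, adjusted p = 0.00041), a call that held without each library in turn and when first-series libraries were left out (-2.43, adjusted p = 0.0014). Knockout macrophages had 50.1, 18.4, 69.9 and 29.1 after CCl4 and 189, 105, 134 and 114 without it, with no overlap either, as for 6.79% of genes. Their log2 fold change of -1.76 (SE 0.41) stood just outside the threshold (adjusted p = 0.053) and passed by DESeq2 (-1.70, adjusted p = 0.0072). It also passed when the series was a term (adjusted p = 0.0304) or when first-series libraries were left out (adjusted p = 0.021). The 2 responses differed by 0.98 (SE 0.57, adjusted p = 0.52).

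Hepatocyte libraries held little Il6. It had 0 counts in the 4 knockout libraries after CCl4, which allows up to 0.437 normalised CPM over the group (3 counts), so that the knockout macrophages after CCl4 (41.9 ± 22.9, SD, n = 4) were at least 95.9-fold higher. Control hepatocytes after CCl4 had 0.572, 0.971 and 1.42. Without CCl4 knockout hepatocytes had 18.5 in mouse 4 and 0 to 1.27 in the other 4 mice, and control hepatocytes 0 to 6.37 with a median of 0.599. Such bounds cover counting error only.

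Osm encodes oncostatin M, which macrophages release and hepatocytes bind through Osmr. In macrophages it had 7.86, 8.08, 18.6 and 7.62 normalised CPM in knockout mice after CCl4 and 4.96, 36.3, 51.9 and 23.7 in control mice after CCl4. In mice without CCl4 it had 5.76, 14.3, 8.90 and 9.10 in knockout mice and 10.1, 25.5, 2.87 and 5.18 in control mice. Mice 12 and 15 of the control mice after CCl4 held the highest values, and mouse 16 lay just under the untreated control mouse 7, but mouse 11 of the treated controls, the library with conflicting labels, was among the lowest. None of the comparisons passed the threshold. The largest values were -1.55 for knockout against control after CCl4 (SE 0.67, adjusted p = 0.58) and 1.52 for CCl4 in control mice (SE 0.64, adjusted p = 0.13), and for CCl4 in control mice it became 1.93 (adjusted p = 0.0324) without the treated mouse 11 and 2.36 (adjusted p = 0.0323) without the untreated mouse 7. In hepatocytes Osm stayed at or below 3.34 normalised CPM and was not tested between hepatocyte groups.

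Il10 and Tgfb1 encode cytokines that dampen immune cells. Il10 in macrophages had 34.4, 44.1, 52.8 and 65.5 normalised CPM in knockout mice after CCl4 and 48.0, 72.6, 159 and 115 in control mice after CCl4. Without CCl4 it had 111, 34.8, 61.5 and 57.8 in knockout mice and 97.3, 245, 122 and 88.9 in control mice. It averaged 49.2 ± 13.2 normalised CPM in knockout mice after CCl4 and 98.7 ± 48.9 in control mice after CCl4, and 66.3 ± 32.1 in knockout mice without CCl4 and 138 ± 72.7 in control mice without CCl4 (SD, n = 4 each). Knockout mice had the lower mean in both conditions, with overlapping ranges and log2 fold changes of -0.99 after CCl4 (SE 0.41, adjusted p = 0.56) and -1.04 without it (SE 0.40, adjusted p = 0.31). Tgfb1 varied least among the 10 in its means, with 41.4 ± 7.78 normalised CPM in knockout mice after CCl4, 57.4 ± 19.2 in control mice after CCl4, 45.5 ± 14.8 in knockout mice without CCl4 and 48.9 ± 15.1 in control mice without CCl4. Its log2 fold changes ran between -0.47 and 0.25 in macrophages and none was called. Its values in single libraries were 27.9 to 76.0. In hepatocytes Il10 stayed at or below 2.59 and Tgfb1 at or below 5.82 normalised CPM, and neither was tested between hepatocyte groups.

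Csf1 encodes the growth factor on which macrophages depend. In hepatocytes it had 20.04, 21.6, 7.94, 22.2 and 7.71 normalised CPM in knockout mice without CCl4, against 2.55 to 9.55 with a median of 5.55 in control mice without CCl4. After CCl4 it had 6.68, 3.87, 4.69 and 5.97 in knockout mice and 12.97, 10.7 and 5.67 in control mice. Knockout mice 4, 5 and 20 stood above all other hepatocyte libraries. Csf1 was higher in knockout hepatocytes without CCl4 (1.49, SE 0.36, adjusted p = 0.018) and lower with CCl4 in knockout hepatocytes (-1.56, SE 0.43, adjusted p = 0.020), where treated and untreated mice did not overlap. The first call was lost without control mouse 8 or knockout mouse 4, 5 or 20 (adjusted p up to 0.060), and the second without knockout mouse 14 or 18 (adjusted p up to 0.058). The interaction was -2.36 (SE 0.58, adjusted p = 0.087).

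In macrophages Csf1 was called in none of the comparisons. It had 41.3, 29.4, 18.6 and 11.2 normalised CPM in knockout mice after CCl4 and 30.05, 37.4, 33.5 and 34.6 in control mice after CCl4, which lay within the range of the knockout mice. Without CCl4 it had 22.2, 16.4, 33.2 and 53.3 in knockout mice and 22.1, 27.1, 21.4 and 11.2 in control mice. It averaged 25.1 ± 13.1 normalised CPM in knockout mice after CCl4, 33.9 ± 3.02 in control mice after CCl4, 31.3 ± 16.3 in knockout mice without CCl4 and 20.5 ± 6.66 in control mice without CCl4 (SD, n = 4 each). Stellate cell markers in these macrophage libraries, in the same order of mice, summed to 3786, 3763, 1260 and 541 in knockout mice after CCl4. In control mice after CCl4 they summed to 1874, 1714, 159 and 169. Without CCl4 they summed to 781, 898, 3016 and 3770 in knockout mice and to 278, 623, 617 and 703 in control mice. The part of stellate cells in the macrophage level of Csf1 was not tested. In knockout mice without CCl4 the hepatocyte mean of 15.9 ± 7.42 (SD, n = 5) was 50.9% of the mean of the macrophage libraries.

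**Figure D5:**
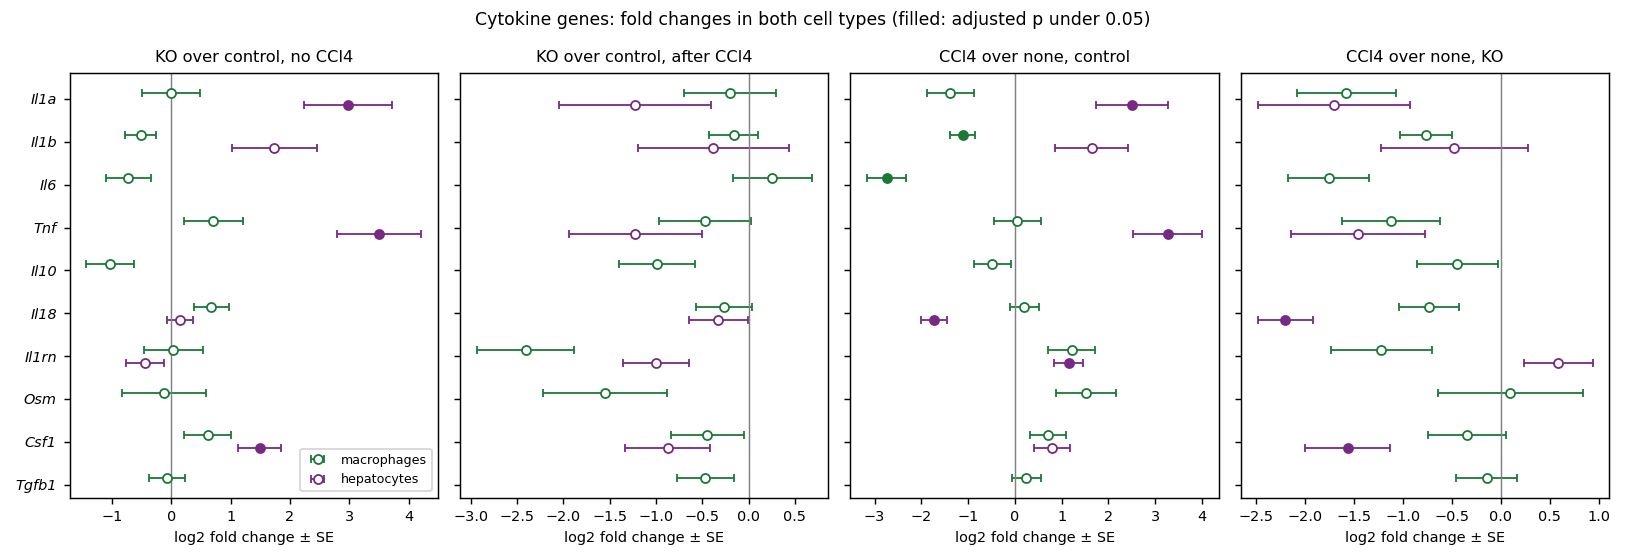
Log2 fold change ± SE of each cytokine gene tested, in macrophages (green) and hepatocytes (purple), for knockout over control and for CCl4 over none, with filled points for an adjusted p under 0.05. With CCl4 in control mice Il6 (-2.74) and Il1b (-1.12) are filled on the left in macrophages, and Tnf (3.27), Il1a (2.50) and Il1rn (1.15) on the right in hepatocytes.

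The CCl4 response of control mice differed between the cell types for 3 of the 10 genes, tested as the response of macrophages minus that of hepatocytes in a joint fit (5% of 12052 genes were called, 1.1% upward and 3.9% downward). The difference was -3.92 for Il1a (SE 0.95, adjusted p = 0.015), -3.18 for Tnf (SE 0.92, adjusted p = 0.039) and 1.91 for Il18 (SE 0.41, adjusted p = 0.0065). It was -2.68 for Il1b (SE 0.82, adjusted p = 0.0504). With the mouse number as a block, which pairs the cell types of a liver, Il18 alone of the 10 was called (2.09, adjusted p = 0.025), with -3.44 for Il1a (adjusted p = 0.081) and -2.60 for Tnf (adjusted p = 0.057). The call of Tnf was lost without 8 of 17 libraries in turn (adjusted p up to 0.14), namely hepatocyte libraries 2, 8, 9, 15 and 16 and macrophage libraries 6, 11 and 12, and that of Il1a without hepatocyte library 16 (adjusted p = 0.072). For the other 3 such differences 0 of the 10 were called by edgeR's quasi-likelihood test and 0 by DESeq2, with 2 at an unadjusted p under 0.05 for CCl4 in knockout mice (0.0415% of genes called), 5 for knockout without CCl4 (0.224%) and 1 for knockout after CCl4 (0% of genes). In control mice after CCl4, hepatocyte libraries held 4.13% of the macrophage level of Il1a and 2.59% of that of Tnf. The 12 macrophage and Kupffer cell markers were at 2.00% to 4.79% there. Of these markers, 6 were higher with CCl4 in control hepatocytes, where 13.7% of all genes were higher. The part of macrophage RNA in the hepatocyte responses, and so in these differences, was not tested.

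Receptors and partners of these cytokines were taken from 4 lists, and their counts stand beside the share of all genes called, with nothing particular to the lists read from them. In hepatocytes with CCl4 in control mice, where 13.7% of all genes were higher and 13.7% lower, 2 of 12 tested receptor genes were higher and 3 lower. Osmr, the oncostatin M receptor, rose by 3.06 (SE 0.62, adjusted p = 0.00058), and Lifr, the LIF receptor that pairs with gp130, fell by 1.13 (SE 0.29, adjusted p = 0.0061), as did Il1rap, the shared chain of the IL-1 receptor, by 1.41 (SE 0.41, adjusted p = 0.016). Of 6 tested genes for maturation and release 1 was higher and 1 lower: the inflammasome sensor Nlrp3 rose by 3.26 (SE 0.73, adjusted p = 0.0017) and the protease Furin fell by 0.72 (SE 0.21, adjusted p = 0.015). Of 15 tested transducers, feedback regulators and targets 4 were higher and 0 lower, among them Nfkbia at 1.34 and Saa3 at 3.17. Of 2 other cytokine ligands tested, Il33 was higher (1.76, SE 0.57, adjusted p = 0.026). Macrophage markers (median 2.28) and stellate cell markers (median 2.85) were also higher in this comparison, as given above. The part of these cells in the list genes was not tested.

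In knockout hepatocytes without CCl4, where 4.64% of all genes were higher and 3.23% lower, 2 of 12 receptor genes were higher and 1 lower. With the file series as a term, 0.816% of all genes were called in this comparison. Lifr was at 99.4 ± 25.5 normalised CPM in knockout mice and 375 ± 154 in control mice (-1.92, SE 0.26, adjusted p = 0.00017), while Tgfbr2 (1.30) and Osmr (2.32) were higher. Gsdmd, the pore protein through which IL-1β leaves cells, was the 1 of 6 maturation genes called (0.69, adjusted p = 0.048). Among the 15 transducers and targets 3 were higher, among them the NF-κB brake Tnfaip3 (2.73) and Lcn2 (2.95), and of the 2 other ligands Tgfb2 was higher (2.24). Macrophage markers rose in the same comparison, as given above, and their part in the list genes was not tested.

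After CCl4 the knockout hepatocytes differed from control hepatocytes in 1 of the 35 listed genes tested (0.176% of all genes), Saa3, a serum amyloid A that was at 33.4 ± 7.61 normalised CPM in knockout mice and 523 ± 649 in control mice (-3.95, SE 0.75, adjusted p = 0.048). With CCl4 in knockout hepatocytes Il1rap fell by 1.34 and the acute phase genes Saa1 and Saa2 fell by 3.15 (SE 0.84, adjusted p = 0.021) and 3.45 (SE 1.06, adjusted p = 0.041). They were 3 of the 35 genes tested from the 4 lists, against 13.9% of all genes.

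In macrophages with CCl4 in control mice the called list genes were lower. These were 4 of 15 receptors, 2 of 10 maturation genes, 2 of 16 transducers and targets and 0 of 5 other ligands tested, where 6.39% of all genes were lower and 6.77% higher. Il1rap fell by 2.15 (SE 0.49, adjusted p = 0.0078), Il6ra, the IL-6 receptor, by 1.17 and Il10ra by 1.11. Casp4 and Gsdmd of the inflammasome path fell by 0.77 and 1.10, Socs3, a feedback inhibitor of gp130 signalling, by 1.01, and Saa3 by 4.04 (SE 0.92, adjusted p = 0.011). Of 46 list genes tested 0 were called in each of the other 4 macrophage comparisons. With CCl4 in control macrophages 3 of 6 monocyte markers were higher (Ly6c2 by 2.15, Ccr2 by 2.82 and Chil3 by 2.68) and 3 of 12 macrophage and Kupffer cell markers lower (Csf1r by 0.99, Clec4f by 1.39 and Timd4 by 1.54). The summed monocyte markers were 3047 to 4313 normalised CPM in control macrophages after CCl4 and 3145 to 6011 without it. The 8 hepatocyte genes summed to 439 to 16248 normalised CPM in control macrophages after CCl4 and 17630 to 21205 without it, with 1 of 8 called (Cyp2e1, which fell by 5.38). The part of these shifts in the values of Il6 and Il1b was not tested.

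Across the 16 macrophage libraries, Il1a, Il1b and Il6 varied together, with Pearson r of log2 CPM of 0.85 for Il1a with Il1b, 0.85 for Il1b with Il6 and 0.76 for Il1a with Il6. These are descriptions over libraries that share the CCl4 contrast and the depth of each library. Across the 18 hepatocyte libraries r was 0.93 for Il1a with Tnf, 0.81 for Il1a with Il1b and 0.78 for Il1b with Tnf, and between -0.21 and -0.11 for Il18 with these 3. Among 8954 other genes of at least 10 normalised CPM in macrophages, those most like Il1a were Cd300ld, Slc8b1 and Kctd12 (r of 0.95 each), and those most like Il6 were Mylip, N4bp2l1 and Eif4g3 (r of 0.92 each). Most like Il1b were Ifi203, Dapk1 and Dyrk2 (0.92 each), most like Il1rn Ralgds, Tpd52 and Fbl (0.88 to 0.94), and most like Tnf Dbnl, Pitpna and Stx11 (0.87 to 0.89). For Il18 they were Riok3, Gngt2 and Abcc1 (0.88 to 0.89), for Tgfb1 Tpd52, Lfng and Gla (0.83 to 0.86) and for Osm Atr, Plaur and Ddx52 (0.80 to 0.88). For Il10 they were Clec10a, Slc2a1 and Arl5b (0.80 to 0.84), and for Csf1 Tpm4, Flrt2 and Armcx2 (0.75 to 0.79).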

How the data were processed

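The authors deposited 1 table of raw counts per cell type, with genes by symbol and a column for each library. Per the labels' protocols they come from QuantSeq 3′ forward libraries read as 50 bp single reads on a HiSeq4000. Per the submitters' processing notes, Trimmomatic 0.39, HISAT2 2.1.0 and GRCm38/mm10 were used. For the counter, annotation and strand setting, nothing is given in the sources used here.

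The counts of each cell type entered 1 edgeR 4.0.16 model (R 4.3.3) with its 4 groups, after filterByExpr and with TMM factors. Robust quasi-likelihood tests were adjusted by Benjamini-Hochberg over all genes tested (9679 in hepatocytes, 10815 in macrophages), with calls at an adjusted p under 0.05. Both tables were joined on the symbol (12052 genes tested) to compare cell types. The contrast of 2 responses between cell types was added after seeing the data. Normalised CPM are counts over the filtered library size times its TMM factor, within a cell type, and the SE, which is approximate, was taken as the log2 fold change divided by the root of F. The floor for 0 counts is 3 counts.

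The genes, the lists and the naming rule (the 10 genes, up to 3 called genes of lowest p per list, and the 3 genes most alike over macrophage libraries) were chosen with earlier results of these data known. Motifs were searched in RefSeq promoter windows, and Il10 and Osm were not among them. No library was a copy of another in its group (chi-square over its degrees of freedom 5.16 to 42.5). Mouse numbers in the titles pair the cell types of a liver. The correlation of paired deviations ran between -0.11 and 0.31 over 15 mice, with a median of 0.091. The alternatives tried were DESeq2 1.42.0, RLE factors, no filter, the 2 libraries of conflicting labels left out or moved, the file series as a term or the second series alone, the mouse number as a replicate block, the older edgeR fit (chosen after seeing the data) and leaving out each library. The fits were tested on simulated data. The values of 1 gene of the lists are not reported here.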

Additional observations from a re-analysis of the deposited data

Results flagged for a closer look

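Within a group, 6 of 69 gene and group combinations (8.70%) had a library that stood apart by Dixon's criterion on linear CPM. Chance gives about 1 of 20 for normally distributed values. Levels near the floor need not follow that distribution, so no excess is read from the 8.70%. In knockout hepatocytes without CCl4, mouse 4 had 18.5 normalised CPM of Il6 and the next mouse 1.27, a gap of 0.931 of the group's range. In control hepatocytes without CCl4, mouse 19 stood apart in Il6 (6.37, next 2.35, gap 0.631) and mouse 6 in Tnf (7.04, next 2.05, gap 0.780). Mouse 9 stood apart in Osm (0.902, with 0 in the other 5, gap 1), which rests on 1 count. In knockout macrophages after CCl4, mouse 17 was high in Osm (18.6, next 8.08, gap 0.958). In control macrophages without CCl4, mouse 9 was low in Il18 (50.1, next 79.1, gap 0.865).

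The response to CCl4 in control mice differed between the cell types by an interaction test for 3 genes, given as macrophages minus hepatocytes on the log2 scale. The difference was -3.92 for Il1a (adjusted p = 0.015), -3.18 for Tnf (adjusted p = 0.039) and 1.91 for Il18 (adjusted p = 0.0065). The calls of Il1a and Tnf were lost with the mouse number as a block (adjusted p = 0.081 and 0.057). Of 12 macrophage and Kupffer cell markers, 6 were higher with CCl4 in control hepatocytes, where 13.7% of all genes were higher. The cause of the differences was not tested.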

How the results depend on the processing

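Of 1360 values recomputed under other settings 1290 kept their direction and side of the threshold (or moved by under 1 SE where not called), 29 lost the call, 33 gained one and 8 moved otherwise; with a library left out these were 1772, 32, 16 and 4 of 1824. A called value changed sign 0 times. For hepatocytes: CCl4 in control, the count of 4 genes became 0 in the second series alone, and was 3 to 4 with a library left out. For hepatocytes: knockout without CCl4, the 3 became 0 with the series as a term and 0 in the second series alone, and 1 to 3 with a library left out. For hepatocytes: CCl4 in knockout, 1 to 2 were called with a library left out. For hepatocytes: interaction, the 0 became 1 by DESeq2, with the series term, without a filter or with RLE factors, and 0 to 2 with a library left out. For macrophages: CCl4 in control, the 2 became 5 without a filter, 3 by DESeq2 (Il1a added) and 1 in the second series alone (2 to 3 with a library left out). Osm was also called there with the 2 conflicting libraries left out (adjusted p = 0.032) or moved to knockout (adjusted p = 0.031). Il1a was called there with the series term (adjusted p = 0.037). In hepatocytes with CCl4 in control mice, Il1rn was lost without the conflicting library of mouse 15 (adjusted p = 0.076). For macrophages: knockout after CCl4, the 0 became 1 by DESeq2 and with the series term, and 2 without a filter. For macrophages: CCl4 in knockout, the 0 became 1 with the 2 conflicting libraries left out or moved, with the series term and in the second series, 2 by DESeq2 and 4 without a filter (0 to 1 with a library left out). For macrophages: interaction, the 0 became 1 by DESeq2 and 2 without a filter. For macrophages minus hepatocytes: CCl4 in control, the 3 became 5 by DESeq2 and with the series term, 0 in the second series and 1 with the replicate block (1 to 5 with a library left out). The replicate block changed no other count of calls. The causes were not tested. Over all genes, the share called for the knockout in hepatocytes without CCl4 was 0.816% with the series term and 0.487% in the second series, against 7.87%. With 3 to 6 mice a group, and Il6, Il10, Osm and Tgfb1 of hepatocytes near the floor, smaller changes were not detectable at this depth.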

Other observations

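Without a filter on low counts Il10 was also called in hepatocytes with CCl4 in control mice (2.66, SE 0.80, adjusted p = 0.017). Its levels there were 1.53, 2.59 and 2.13 normalised CPM after CCl4 and 0 to 2.35 without it, with a median of 0.102. DESeq2 also called Il6 lower with CCl4 in knockout hepatocytes (-5.14, SE 1.78, adjusted p = 0.039), where the 4 treated libraries had 0 counts and mouse 4 held most of the untreated level.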
